A study of Mus musculus with 15 samples.

Results

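The 10 genes described here mark the mural cells of blood vessels, that is, pericytes and smooth muscle cells: Pdgfrb, Rgs5, Kcnj8, Abcc9, Acta2, Tagln, Vtn, Anpep, Notch3 and Myh11. They were taken as a named list, all 10 were found by symbol among 53337 genes, and their transcript values were summed to 1 value per gene. The libraries were mRNA-seq of dorsal forebrain at embryonic day 18 from C57BL/6J mice, whose dams had carried pumps releasing arginine vasopressin (AVP) or saline from before mating. There were 4 AVP-exposed males, 4 saline males, 3 AVP-exposed females and 4 saline females, 15 libraries in all. The planned animals came from 8 litters, and within a sex and treatment each library stood for a litter of its own. Which males and females were littermates is not given, so the fits over both sexes treat possible siblings as unrelated. A further AVP-exposed female that had been planned is not analysed here. The exposure was maternal, so any effect of AVP itself on the embryo cannot be told apart from changes in the dam and placenta.

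Values are TPM, a scale of transcript abundance that corrects for transcript length and makes each library sum to 1000000. It carries no read counts, so the depth behind each value is unknown. The library labelled saline male 3 went against its label, with an Xist level of 266 TPM (174 to 294 TPM in the females, at most 1.13 TPM in the other males) and a summed level of 4 Y-linked genes of 0.489 TPM (at least 102 TPM in the other males). It was kept in its labelled group, and the male differences and list counts are given with and without it. Saline male 1 and saline male 2 also stood at opposite ends of the range for many of the genes below.

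Mural cells wrap the endothelial tube. Pericytes sit on capillaries within the basement membrane, where they are recruited during brain development by platelet-derived growth factor B from the endothelium and support the blood-brain barrier. Smooth muscle cells ring arteries and arterioles and set vessel diameter with an actin and myosin apparatus. In bulk tissue, fewer cells of a type and less RNA per cell cannot be told apart.

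The regulatory sequences of the contractile gene Acta2 and of the neighboring channel genes Kcnj8 and Abcc9 are shown because these genes head the patterns of joint variation described below. Acta2 lies on chromosome 19 (34241090 to 34255590, minus strand, GRCm38). Kcnj8 (142564837 to 142571614) and Abcc9 (142587862 to 142702315) lie on the minus strand of chromosome 6, separated by 16247 bases with 0 annotated genes between them. The promoter windows, from RefSeq on GRCm38.p6, run from 250 bases before to 50 bases after the annotated start and are written 5′ to 3′ on the strand of the gene. Capitals mark the motif CAGCTG, the motif GGAATG and boxes of the CArG type, which are taken up after the sequences.
Acta2, chr19:34255324-34255623, minus strand: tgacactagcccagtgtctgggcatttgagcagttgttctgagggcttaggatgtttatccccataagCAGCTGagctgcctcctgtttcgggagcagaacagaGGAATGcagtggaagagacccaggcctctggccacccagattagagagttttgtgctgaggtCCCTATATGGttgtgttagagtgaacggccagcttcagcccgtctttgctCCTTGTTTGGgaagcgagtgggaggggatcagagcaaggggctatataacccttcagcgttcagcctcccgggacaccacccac
Kcnj8, chr6:142571565-142571864, minus strand: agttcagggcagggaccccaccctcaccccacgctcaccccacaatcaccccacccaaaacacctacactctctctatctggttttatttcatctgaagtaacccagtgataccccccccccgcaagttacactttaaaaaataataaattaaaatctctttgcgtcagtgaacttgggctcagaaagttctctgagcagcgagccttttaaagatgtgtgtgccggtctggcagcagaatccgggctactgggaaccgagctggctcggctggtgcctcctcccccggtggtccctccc
Abcc9, chr6:142702225-142702524, minus strand: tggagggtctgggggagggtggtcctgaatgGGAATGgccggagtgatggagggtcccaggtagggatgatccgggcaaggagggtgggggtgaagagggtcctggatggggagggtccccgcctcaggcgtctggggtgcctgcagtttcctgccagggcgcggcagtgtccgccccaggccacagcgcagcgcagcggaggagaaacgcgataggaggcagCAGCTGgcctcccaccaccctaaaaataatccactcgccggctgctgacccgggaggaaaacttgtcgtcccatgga

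Promoter windows were found for 7 of the 10 genes (these 3 and those of Rgs5, Vtn, Anpep and Notch3). Both strands were searched for a few short motifs, and a match describes letters, not a bound site. The CArG box, which serum response factor binds at contractile genes, has only A or T in the stretch between its CC and GG. That strict form was in 1.63% of 32851 promoters and in 0 of the 7. With 1 C or G allowed inside the stretch, it was in 9.98% of promoters and, among the 7, in Acta2, which held 2 copies, CCCTATATGG starting 84 bases and CCTTGTTTGG starting 34 bases before the start. GGAATG, the core that TEAD factors bind, was in 14.7% of promoters and in Abcc9, Acta2 and Vtn. CAGCTG, an E-box, was in 16.3% of promoters and in Abcc9, Acta2, Anpep and Rgs5. GTGGGAA, the core of the RBPJ site downstream of Notch, was in 6.38% and in 0 of the 7. TATAAA was in 13.6% and in Vtn, where the 2 strands gave overlapping matches. No CArG-like box overlapped another motif.

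The levels of the 10 genes spanned from Rgs5 at 51.7 ± 7.17 TPM (SD, n = 15 libraries, as for the levels that follow) to Myh11 at 0.324 ± 0.150 TPM. Rgs5, a regulator of G-protein signaling concentrated in pericytes, and Vtn, the extracellular matrix protein vitronectin, at 47.8 ± 12.1 TPM, were the abundant pair. Among the 15078 genes tested over both sexes, these levels were above 77.9% and 76.1% of genes. The receptors followed at lower levels. Pdgfrb, the receptor for platelet-derived growth factor B, was at 9.40 ± 1.64 TPM. Anpep, the membrane aminopeptidase CD13, was at 8.01 ± 3.46 TPM, and Notch3, the Notch receptor of arterial mural cells, was at 4.89 ± 0.711 TPM. Kcnj8 at 6.85 ± 0.833 TPM and Abcc9 at 3.79 ± 0.608 TPM encode the pore and the sulfonylurea receptor subunit of a vascular ATP-sensitive potassium channel. The contractile genes were low: Acta2, smooth muscle actin, was at 4.59 ± 2.19 TPM, and Tagln, the actin-binding protein transgelin, was at 3.87 ± 1.73 TPM. The smooth muscle myosin heavy chain Myh11 never reached 1 TPM and was the 1 gene of the 10 below the filter for testing, set at 1 TPM or more in 50% or more of the libraries compared.

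Neighbors in this order were compared by their differences in log2(TPM + 0.5) within each library (exact sign-flip permutation test, two-sided, 9 pairs, Benjamini-Hochberg adjusted). The order came from these same libraries, and the test treats possible littermates as unrelated. The p-values therefore only describe how steady each step was. Vtn exceeded Pdgfrb, Kcnj8 exceeded Notch3 and Tagln exceeded Myh11 in 15 of 15 libraries, each with an adjusted exact p of 0.000183; the raw p, 6.10e-05, is the smallest that 15 libraries can give. These steps were 2.26, 0.45 and 2.33 on the log2 scale. Rgs5 exceeded Vtn in 11 of 15 libraries (adjusted exact p = 0.0943), and Pdgfrb exceeded Anpep in 11 of 15 (adjusted exact p = 0.0943). The other 4 neighboring pairs, from Anpep to Kcnj8 and from Notch3 through Acta2 and Abcc9 to Tagln, had adjusted exact p from 0.362 to 0.667 and did not differ beyond their spread. With protein-coding transcripts alone, Vtn fell to 43.0 TPM and Anpep to 6.57 TPM, below Kcnj8, and Rgs5 then exceeded Vtn in 14 of 15 libraries (adjusted exact p = 0.000275).

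The genes also differed in how steady they were between libraries of a group. The within-group SD of log2(TPM + 0.5) was 0.17 for Kcnj8, 0.17 for Notch3, 0.19 for Rgs5, 0.20 for Abcc9 and 0.21 for Pdgfrb, near or below the median of 0.21 over all genes tested. Vtn was more variable, at 0.36. Tagln, Acta2 and Anpep varied most, at 0.51, 0.69 and 0.71, each above at least 91.7% of the genes tested. The lowest and highest Acta2 libraries differed 6.27-fold and those of Anpep 7.08-fold, against 1.63-fold for Rgs5 and 1.65-fold for Kcnj8. The plot of TPM by library and group shows this contrast. Kcnj8, Notch3, Rgs5, Abcc9 and Pdgfrb were steady, Acta2, Tagln and Anpep were variable, and Vtn lay between.

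**Figure D1:**
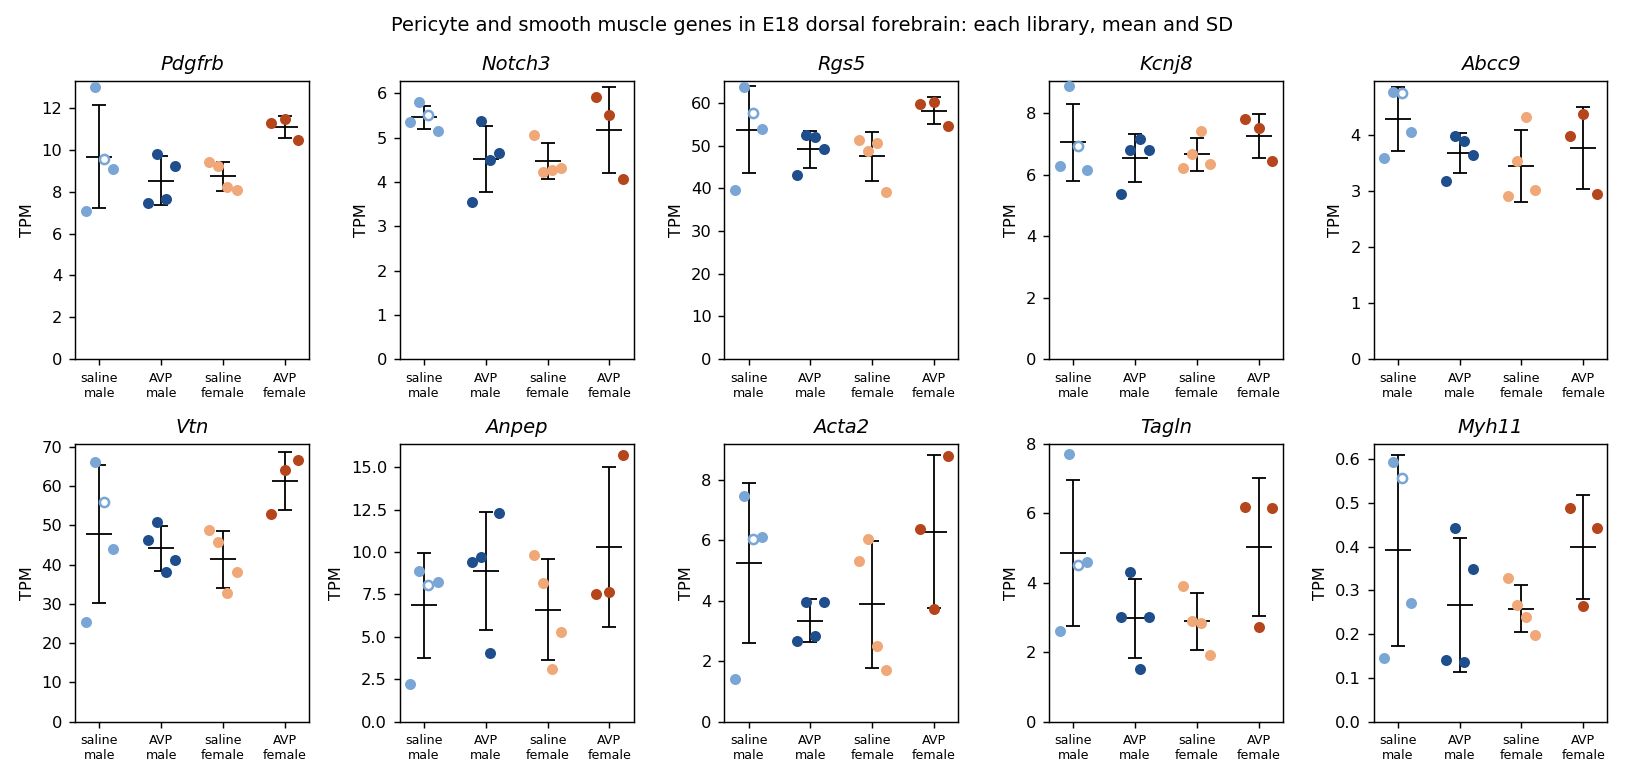
TPM of each of the 10 genes (y axis, from 0) in the 4 groups (x axis); points are libraries, the horizontal bar and whiskers are the mean and SD, and the open circle is the library labelled saline male 3. The AVP-exposed females lie above every saline female for Pdgfrb, Rgs5 and Vtn, and saline male 1 is the lowest of all 15 libraries for Pdgfrb, Vtn, Anpep and Acta2.

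The study asked whether prenatal exposure acted differently in males and females, and AVP was therefore set against saline separately in each. In females, 9 of the 9 genes tested were higher on average in the AVP-exposed libraries, and 3 of them (Pdgfrb, Rgs5 and Vtn) had groups that did not overlap. None passed the test: with limma on log2(TPM + 0.5) over 15132 genes, every one of the 9 had an adjusted p of 0.999. The background was 0% of genes called at an adjusted p under 0.05, 4.51% at an unadjusted p under 0.05 and 5.55% with groups that did not overlap in either direction; the 9 genes gave 0, 3 and 3. Their median difference was 0.33 on the log2 scale, against -0.05 for all genes tested. The library labelled saline male 3, which had a female level of Xist, is not in these female groups. It stood at 57.7 TPM for Rgs5 and 55.8 TPM for Vtn, within the ranges of the AVP-exposed females. For Pdgfrb it stood at 9.55 TPM, below the AVP-exposed females.

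Pdgfrb stood at 11.3, 11.5 and 10.5 TPM in the AVP-exposed females and at 9.42, 9.22, 8.22 and 8.09 TPM in the saline females. Every AVP-exposed female was above every saline female, by 1.26-fold on average (log2 difference 0.33 ± 0.13, SE; 95% confidence interval 0.03 to 0.63; adjusted p = 0.999).

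Rgs5 stood at 59.8, 60.2 and 54.6 TPM in AVP-exposed females and at 51.2, 48.8, 50.7 and 39.1 TPM in saline females. The groups were again apart, with saline female 4 lowest (log2 difference 0.30 ± 0.12, SE; 95% confidence interval 0.03 to 0.57; adjusted p = 0.999). Without saline female 4 the difference was 0.21.

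Vtn had the largest difference of the 3 genes whose groups did not overlap. It was at 52.8, 64.1 and 66.7 TPM in AVP-exposed females and at 48.8, 45.7, 32.7 and 38.2 TPM in saline females, a 1.48-fold difference (log2 0.57 ± 0.16, SE; 95% confidence interval 0.21 to 0.93; adjusted p = 0.999). The lowest AVP-exposed female was close to the highest saline female.

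The contractile genes showed larger differences with wider spread, and their groups overlapped. Acta2 was at 6.37, 3.72 and 8.79 TPM in AVP-exposed females and at 5.31, 6.04, 2.50 and 1.71 TPM in saline females (log2 difference 0.70 ± 0.43, SE). Tagln was at 6.20, 2.74 and 6.17 TPM against 3.92, 2.91, 2.84 and 1.92 TPM (0.66 ± 0.32, SE). In both genes AVP-exposed female 2 lay among the saline females. Single libraries moved both differences: Acta2 ran from 0.41 without saline female 4 and 0.43 without AVP-exposed female 3 to 1.0 without AVP-exposed female 2. Tagln ran from 0.48 without AVP-exposed female 1 and 0.49 without AVP-exposed female 3 to 1.01 without AVP-exposed female 2. Anpep overlapped likewise, at 7.54, 7.62 and 15.7 TPM against 9.82, 8.19, 3.11 and 5.28 TPM (0.63 ± 0.40, SE), and without AVP-exposed female 3, its highest library, the difference was 0.30.

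Kcnj8, Abcc9 and Notch3 differed least in females. Kcnj8 averaged 7.26 ± 0.713 TPM (SD, n = 3) in AVP-exposed and 6.66 ± 0.538 TPM (SD, n = 4) in saline females, with a 95% confidence interval of the log2 difference from -0.23 to 0.46. Abcc9 averaged 3.76 ± 0.732 and 3.44 ± 0.641 TPM, with an interval from -0.37 to 0.59. For Notch3 the means were 5.17 ± 0.976 and 4.47 ± 0.401 TPM, with an interval from -0.24 to 0.60. Myh11, under the filter, averaged 0.398 ± 0.118 TPM in AVP-exposed and 0.258 ± 0.0541 TPM in saline females (exact two-sided permutation p = 0.171; the smallest this design allows is 0.0286).

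In males, 8 of the 9 genes were lower on average in AVP-exposed libraries, and 0 of the 9 had groups that did not overlap. None passed the test over 15271 genes, with adjusted p from 0.426 to 0.960 (limma). Of all genes tested, 0.00655% were called at an adjusted p under 0.05, 13.5% had an unadjusted p under 0.05 and 7.26% had groups that did not overlap; the 9 genes gave 0, 0 and 0. The median difference of the 9 was -0.15, little below the -0.10 of all genes tested, of which 73.6% were lower with AVP. That direction hung on the scaling: with median-of-ratios or quantile scaling, the median of all genes moved to -0.01 or 0.02, and 3 or 4 of the 9 genes were higher instead of 1. Without the library labelled saline male 3, 2 of the 9 were higher.

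Rgs5 was at 43.1, 52.5, 51.9 and 49.1 TPM in AVP-exposed males and at 39.7, 63.6, 57.7 and 53.8 TPM in saline males. The saline males held both the lowest and the highest library, and the groups overlapped (log2 difference -0.11 ± 0.14, SE; -0.07 without the library labelled saline male 3). The difference was -0.02 without saline male 2 and -0.25 without saline male 1. Vtn behaved alike, at 46.2, 50.9, 38.2 and 41.1 TPM against 25.3, 66.0, 55.8 and 44.0 TPM. Its log2 difference was -0.04 ± 0.26 (SE), and 0.06 without the library labelled saline male 3.

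Pdgfrb was at 7.45, 9.81, 7.65 and 9.22 TPM in AVP-exposed males and at 7.07, 13, 9.55 and 9.08 TPM in saline males, again with saline male 1 lowest and saline male 2 highest (log2 difference -0.15 ± 0.18, SE, and -0.15 without the library labelled saline male 3). It was -0.004 without saline male 2 and -0.28 without saline male 1. Notch3 came closest to separate groups, at 3.55, 5.37, 4.49 and 4.66 TPM against 5.36, 5.80, 5.51 and 5.16 TPM (log2 difference -0.26 ± 0.14, SE; -0.25 without the library labelled saline male 3). Only AVP-exposed male 2 reached the saline range.

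Tagln had the largest male difference below 0, at 3.02, 4.32, 1.53 and 3.03 TPM in AVP-exposed and 2.62, 7.70, 4.52 and 4.59 TPM in saline males (log2 difference -0.61 ± 0.33, SE, and -0.61 without the library labelled saline male 3). Acta2 was at 2.66, 3.95, 2.83 and 3.96 TPM against 1.4, 7.46, 6.04 and 6.10 TPM (-0.41 ± 0.42, SE; -0.29 without that library). In both genes 3 of the 4 saline males exceeded every AVP-exposed male, and saline male 1 lay below most or all of them. Without saline male 1 the differences widened to -0.84 for Tagln and -0.88 for Acta2. Without saline male 2 they shrank to -0.37 and -0.19, and Tagln was also at -0.37 without AVP-exposed male 3. Neither gene was called in any of these. The short transcript Tagln-202 (369 bases) held 0, 0, 0 and 28.4% of Tagln TPM in AVP-exposed males. In saline males it held 38.9, 39.5, 24.5 and 19.5%. The part of this transcript in the Tagln differences, here and between the sexes, was not tested.

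Anpep was the exception among the male means, at 9.41, 9.73, 4.04 and 12.3 TPM in AVP-exposed and 2.22, 8.89, 8.07 and 8.23 TPM in saline males (log2 difference 0.41 ± 0.45, SE; 0.53 without the library labelled saline male 3). The groups overlapped, and the sign rested on saline male 1, without which it was -0.02. The short transcript Anpep-204 (746 bases) held 35.8, 32.2, 14.1 and 40.7% of Anpep TPM in AVP-exposed males. In saline males it held 0, 26.4, 36.7 and 20.9%. For Anpep-206 (770 bases) the shares were 21.6, 3.38, 12.2 and 24.6% against 0.0669, 6.23, 7.39 and 0%. Anpep-203 (178 bases) held 18.9% in saline male 4 and 0 in the other males. The part of these transcripts in the Anpep difference was not tested. Kcnj8 averaged 6.54 ± 0.788 TPM in AVP-exposed and 7.05 ± 1.26 TPM in saline males (SD, n = 4 each), and Abcc9 averaged 3.67 ± 0.353 and 4.28 ± 0.572 TPM. The 95% confidence intervals of their log2 differences were -0.43 to 0.24 and -0.51 to 0.12, around -0.10 and -0.20; without the library labelled saline male 3 the differences were -0.10 and -0.15. Myh11 averaged 0.267 ± 0.153 TPM in AVP-exposed and 0.392 ± 0.218 TPM in saline males (exact two-sided permutation p = 0.343; the smallest possible is 0.0286).

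**Figure D2:**
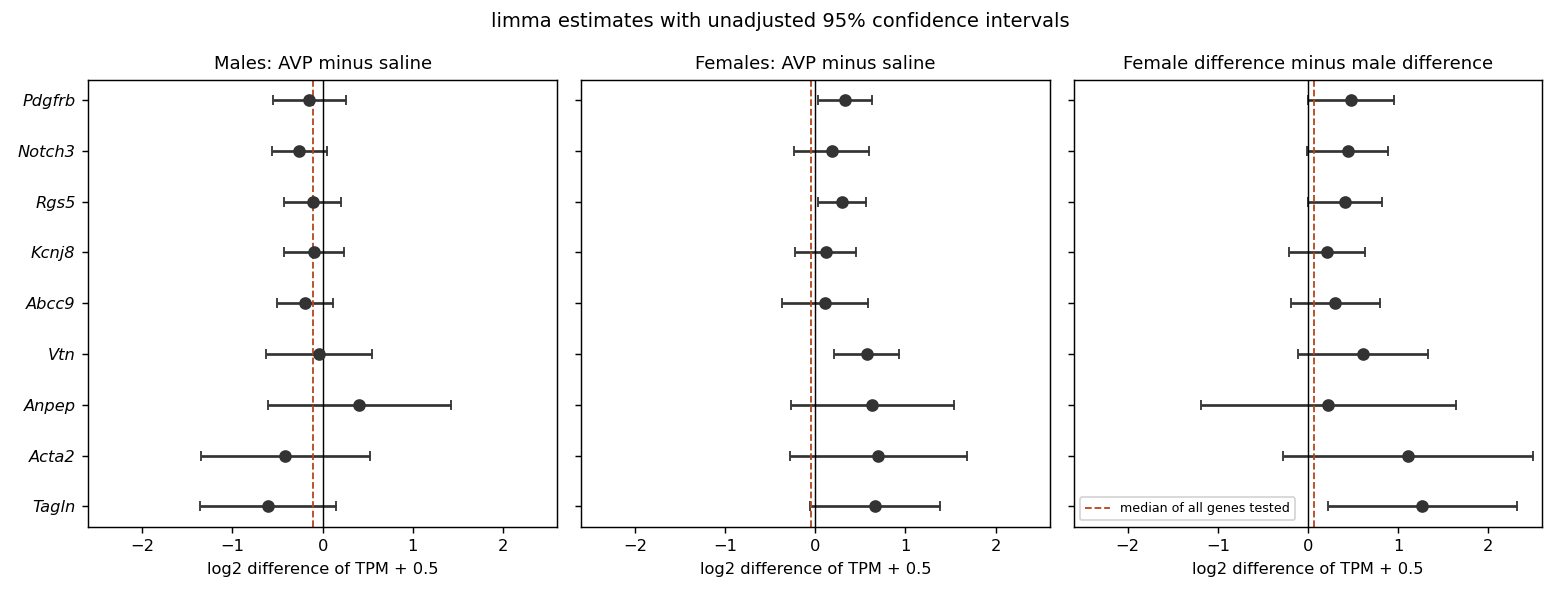
Log2 difference of TPM + 0.5 (x axis) for the 9 genes tested (y axis) in males, in females and for the female difference minus the male difference; points are limma estimates, whiskers unadjusted 95% confidence intervals, and the dashed line the median of all genes tested. The female estimates are all above 0 and 8 of the 9 male estimates are below 0, with intervals above 0 for Pdgfrb, Rgs5 and Vtn in females and for Pdgfrb and Tagln in the difference between the sexes.

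An interaction term, the female minus the male log2 difference, tested whether the sexes responded unequally, over 15078 genes. All 9 estimates were above 0, with a median of 0.44 against 0.07 for all genes tested. None of the 9 was called (limma, adjusted p from 0.896 to 0.946); the background was 0% of genes at an adjusted p under 0.05 and 4.14% at an unadjusted p under 0.05, and the 9 genes gave 0 and 2. The 2 were Tagln (1.27 ± 0.49, SE) and Pdgfrb (0.48 ± 0.22, SE). Rgs5 and Notch3 fell just outside that level, with estimates of 0.41 ± 0.19 and 0.44 ± 0.21 (SE). Acta2 had an estimate of 1.11 ± 0.65 (SE), Vtn of 0.61 ± 0.34, Abcc9 of 0.30 ± 0.23, Anpep of 0.23 ± 0.66 and Kcnj8 of 0.21 ± 0.20. Leaving out the library labelled saline male 3 kept all 9 estimates above 0, with 1.27 for Tagln and 0.48 for Pdgfrb.

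With both sexes fitted together and sex as a covariate, 6 of 9 genes were higher in AVP-exposed libraries, with a median of 0.07 against -0.08 for all genes, and 9 of 9 were higher under median-of-ratios or quantile scaling. The call rates over all genes were 0% at an adjusted p and 10.4% at an unadjusted p under 0.05, and the 9 genes gave 0 and 0. Between females and males, over treatments, the median of the 9 was 0.03, with 0% of all genes called at an adjusted p and 1.39% at an unadjusted p under 0.05, and 0 and 0 of the 9 genes. That comparison kept the library labelled saline male 3 among the males, and even Xist was not called in it. It therefore says little on sex differences. With that library left out, 7 of all genes and 0 of the 9 were called.

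The library numbers fall into a run from 1 to 8 and a run from 13 to 20, which the labels do not explain, and the differences were computed within each. In females, 9 of the 10 genes were higher with AVP in the first run (1 AVP-exposed against 2 saline, median 0.26) and 9 of 10 in the second (2 against 2, median 0.39). Pdgfrb was higher by 0.26 and 0.41 and Rgs5 by 0.26 and 0.36. Vtn differed by 0.16 and 0.88, Acta2 by 0.16 and 1.28, and Anpep by -0.24 and 1.33, so these were uneven between the runs. In males, 2 of 10 genes were higher in the first run (median -0.14) and 1 of 10 in the second (median -0.20). Tagln was lower in both, by -0.30 and -0.92.

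Most pairs of the 10 genes varied in the same direction across libraries of the same group, some of them only weakly. Pearson correlations of log2(TPM + 0.5) were taken over the 15 libraries after group means were removed, as a description with no test, since all genes of a library share its tissue piece and total. Of 45 pairs, 42 were above 0 and 26 above 0.5, with a median of 0.62, which was 0.46 without saline male 1. In the map of pairwise correlations the genes fall into 2 loose sets, with Pdgfrb and Rgs5 correlated with genes of both.

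**Figure D3:**
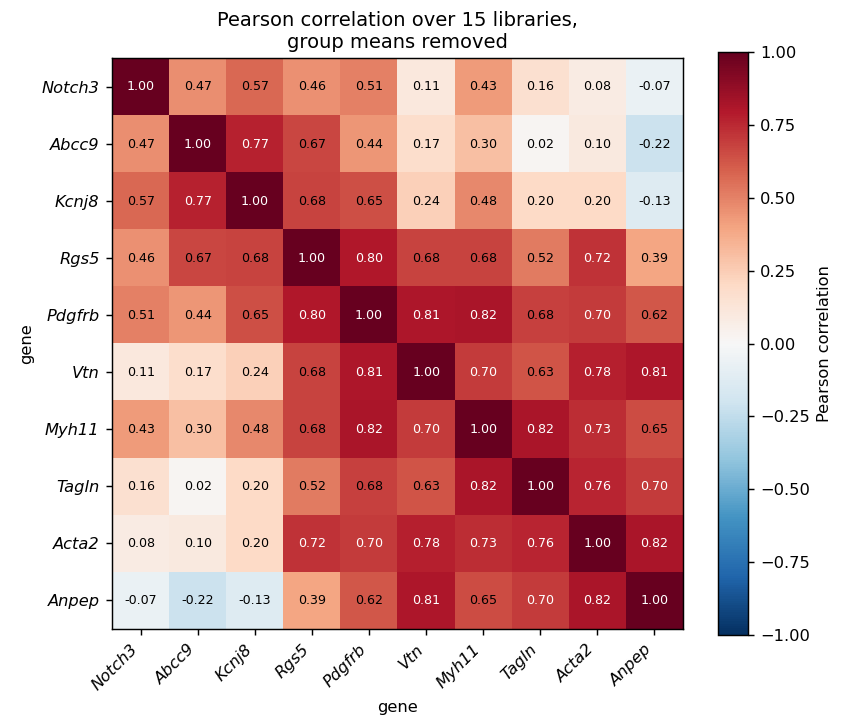
Pearson correlation between each pair of the 10 genes (both axes) over 15 libraries after removal of group means; color runs from -1 (blue) to 1 (red). Kcnj8, Abcc9 and Notch3 are drawn side by side and so are Vtn, Myh11, Tagln, Acta2 and Anpep, with Myh11 also at 0.48 with Kcnj8; the lowest value is -0.22, for Abcc9 and Anpep.

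The first set held the channel subunits Kcnj8 and Abcc9, which correlated at 0.77 (Spearman 0.78) and at 0.82 without the 2 libraries farthest from the Kcnj8 median. With group means removed within each run of library numbers the value was 0.88, and across the 15 fits that left out 1 library it ran from 0.74 to 0.84. Abcc9 stood at 0.554 ± 0.0649 of the Kcnj8 TPM (SD, n = 15). Notch3 correlated with Kcnj8 at 0.57 and with Abcc9 at 0.47. The promoter windows of Kcnj8 and Abcc9 printed above shared none of the motifs searched.

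The second set held the contractile genes with Vtn and Anpep. Acta2 correlated with Anpep at 0.82 (Spearman 0.81) and with Tagln at 0.76 (Spearman 0.60), and Tagln with Myh11 at 0.82 (Spearman 0.76). Vtn and Anpep correlated at 0.81 (Spearman 0.71), and at 0.66 without saline male 1. Acta2 correlated at 0.20 with Kcnj8 and 0.10 with Abcc9, and Anpep at -0.13 and -0.22. The value for Anpep and Abcc9 ran from -0.65 without saline male 1 to 0.01 without saline female 3. The sets were not cleanly apart, since Myh11 correlated at 0.48 with Kcnj8 and 0.43 with Notch3, much as Notch3 did with Abcc9. Pdgfrb correlated with both sides, at 0.65 with Kcnj8, 0.80 with Rgs5, 0.81 with Vtn and 0.82 with Myh11. Its value with Vtn depended on the extremes, at 0.45 without the 2 libraries farthest from the Pdgfrb median.

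Other cell types moved with these genes. The mean log2(TPM + 0.5) of the 9 genes correlated at 0.89 with that of 14 endothelial genes, at 0.86 with 13 meningeal fibroblast genes and at 0.90 with 4 border macrophage genes, against 0.65 for 15 other mural markers, 0.08 for 4 choroid plexus genes and -0.24 for 6 cortical neuron genes (each described over 15 libraries with group means removed). With 1 library left out these ran from 0.80 to 0.92 for endothelium, 0.65 to 0.90 for meningeal fibroblasts, 0.77 to 0.95 for border macrophages and 0.38 to 0.84 for the other mural markers. For choroid plexus they ran from -0.14 to 0.48 and for cortical neurons from -0.48 to -0.11. Rgs5 tracked the endothelial genes most closely, at 0.94, and Vtn the meningeal fibroblast genes, at 0.88. Kcnj8 and Abcc9 tracked meningeal fibroblast genes at only 0.26 each.

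**Figure D4:**
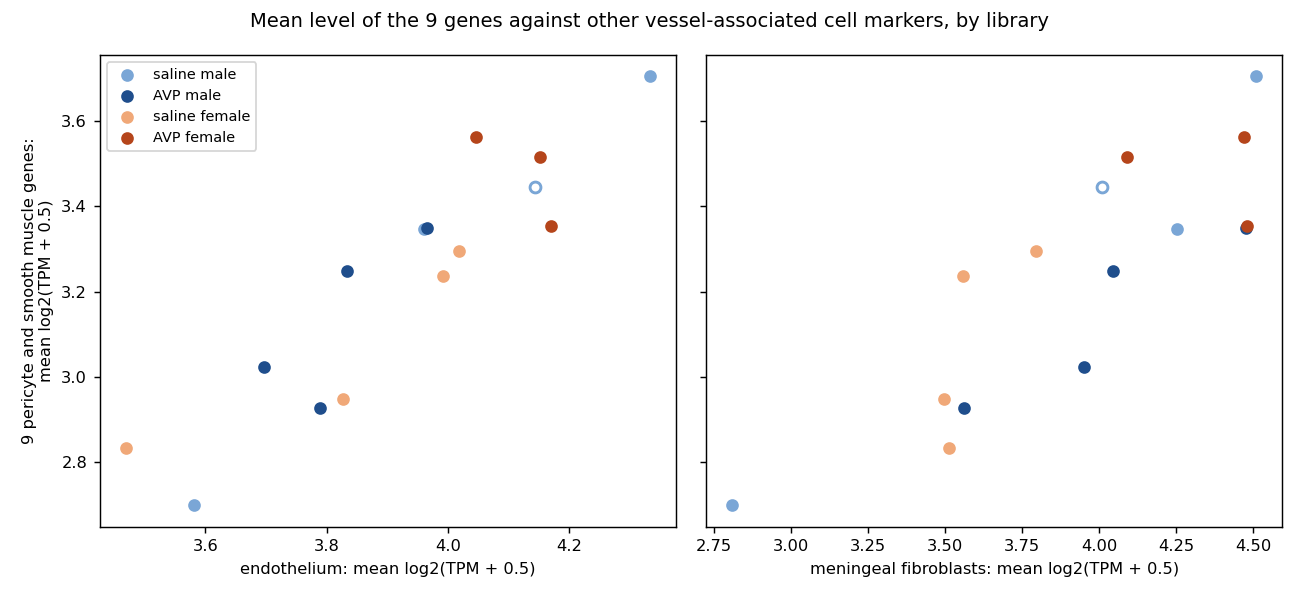
Mean log2(TPM + 0.5) of the 9 pericyte and smooth muscle genes (y axis) against that of endothelial genes (left x axis) and meningeal fibroblast genes (right x axis); points are the 15 libraries, colored by group, with the library labelled saline male 3 open. Saline male 1 and saline male 2 hold the lowest and highest values on the y axis, and the AVP-exposed females sit to the right of the saline females in both panels.

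The markers of these cells also differed between the female groups, and their part in the differences above was not tested. Summed over the 13 meningeal fibroblast genes, which were all detected, the level was 283 to 384 TPM in AVP-exposed and 189 to 216 TPM in saline females, and 10 of 13 had an unadjusted p under 0.05. The 15 endothelial genes summed to 340 to 353 TPM against 210 to 319 TPM, and 4 of 14 tested had an unadjusted p under 0.05. Of all genes tested in females, 4.51% had an unadjusted p under 0.05. Red blood cell genes summed to 5130 to 13700 TPM against 2240 to 5710 TPM, ranges that overlapped, and 5 of 5 tested had an unadjusted p under 0.05. Border macrophage genes summed to 48.3 to 54.7 TPM against 16.5 to 31 TPM, and 4 of 4 tested had an unadjusted p under 0.05. In males the ranges overlapped for each of these lists: 193 to 365 against 116 to 382 TPM for meningeal fibroblasts and 255 to 298 against 236 to 399 TPM for endothelium. Choroid plexus genes, led by Ttr, ranged from 8.29 to 2280 TPM over all libraries. In females they summed to 27.6 to 2280 TPM with AVP and 8.58 to 961 TPM with saline. Of 6 tested, 6 were higher with AVP (median log2 difference 1.52). Striatum and ventral forebrain genes summed to 62.6 to 137 TPM against 93.7 to 151 TPM. Of 8 tested, 8 were lower (median -0.53). The shares over all genes tested in females were 36.9% higher and 63.1% lower. No gene of any of these lists was called in either sex.

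Relative to the endothelium, the 9 genes differed little between groups. Their mean log2(TPM + 0.5) minus that of the 14 endothelial genes was -0.646 ± 0.167 (SD, n = 3) in AVP-exposed and -0.748 ± 0.10 (n = 4) in saline females, and -0.684 ± 0.124 (n = 4) in AVP-exposed and -0.706 ± 0.123 (n = 4) in saline males. The groups overlapped in both sexes. Relative to the 13 meningeal fibroblast genes, the mean was -0.869 ± 0.277 in AVP-exposed and -0.511 ± 0.148 in saline females, and -0.872 ± 0.208 in AVP-exposed and -0.596 ± 0.354 in saline males. The groups overlapped here too, at -1.13 to -0.574 against -0.678 to -0.320 in females and -1.13 to -0.635 against -0.906 to -0.110 in males.

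The other genes of mural cells and of the pathways these receptors serve were read from lists, by counts. These counts stand against a background in which 36.9% of all genes tested were higher in AVP-exposed females and 73.6% were lower in AVP-exposed males. The female share was 45.4% with median-of-ratios scaling and 48.1% with quantile normalization. With these 2 scalings the female counts below changed for the PDGF list (5 and 6 of 11 higher). For the TGF-beta and angiopoietin list they were 11 and 13 of 17. The male share was 69.9% without the library labelled saline male 3, 51.2% with median-of-ratios scaling and 45% with quantile normalization, and the male counts below are given in that order of settings. No listed gene was called in males under any of the 3 settings, which were chosen for the lists after seeing the data. Separate groups were part of the rule by which genes were named below, so that trait adds no weight to a list. Of all genes tested, 5.55% in females and 7.26% in males had groups without overlap. The library labelled saline male 3, with its female Xist level, lay within the AVP-exposed female range for Jag1, Angpt2, Col4a1 and Nid1. For Gja4, Tbx18, Tpm2, Tek and Nid2 it lay below that range. Of 15 other mural markers tested, 13 were higher in AVP-exposed females (median 0.30) and 12 were lower in AVP-exposed males (median -0.20), with 0 called in either sex. The male count was 11 of 14 (median -0.15), 12 of 15 and 9 of 15 in the other settings. Gja4, the gap junction protein connexin 37, was at 8.65, 8.10 and 8.13 TPM in AVP-exposed and 6.80, 6.02, 5.96 and 4.27 TPM in saline females, without overlap (log2 difference 0.51 ± 0.18, SE; adjusted p = 0.999). Tbx18, a transcription factor of mural cells, was at 5.61, 5.95 and 5.67 TPM against 3.48, 4.12, 2.49 and 1.41 TPM, also without overlap (0.96 ± 0.30, SE; adjusted p = 0.999). Higd1b and Mcam, the most abundant of the list at means of 14.6 and 12.4 TPM over all libraries, differed by 0.31 ± 0.15 and 0.22 ± 0.15 (SE) in females.

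The contractile programme behaved less uniformly. Of 11 genes tested, 7 were higher in AVP-exposed females (median 0.17) and 8 were lower in AVP-exposed males (median -0.15), with 0 called. The male count, near the share of all genes, was 7 (median -0.14), 7 and 5 of 11 in the other settings. Tpm2, a tropomyosin, was at 9.49, 9.09 and 10.2 TPM in AVP-exposed and 5.88, 9.02, 5.16 and 5.55 TPM in saline females, and its groups did not overlap (log2 difference 0.58 ± 0.20, SE; adjusted p = 0.999). Tpm1 at a mean of 97.1 TPM and Cald1, caldesmon, at 26 TPM far exceeded Acta2 and Tagln, and both are also used by non-muscle cells.

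Among PDGF ligands and signaling partners, 3 of 11 genes were higher in AVP-exposed females (median -0.04) and 2 of 10 in males (median -0.07), close to the medians of all genes. In males 8 of 10 were thus lower, also without the library labelled saline male 3 (median -0.06), but only 2 and 1 of 10 with the other scalings. In the Notch pathway, 9 of 13 genes were higher in females (median 0.09) and 12 of 13 lower in males (median -0.19), with 0 called. The male count was 10 (median -0.17), 9 and 9 of 13 in the other settings. Jag1, a Notch ligand, was at 5.62, 8.17 and 6.92 TPM in AVP-exposed and 4.52, 5.40, 4.46 and 4.73 TPM in saline females (log2 difference 0.48 ± 0.18, SE; adjusted p = 0.999), without overlap. Jag2, the most abundant ligand of the list, was at 29.0, 23.9, 41.6 and 40.5 TPM in AVP-exposed and 60.2, 47.1, 57.5 and 44.6 TPM in saline males, without overlap (-0.65 ± 0.19, SE; adjusted p = 0.304). Without the library labelled saline male 3 the difference was -0.60 ± 0.21 (SE; adjusted p = 0.612).

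The TGF-beta and angiopoietin list, which carries signals between endothelium and mural cells, had 11 of 17 genes higher in AVP-exposed females (median 0.21) and 14 of 17 lower in AVP-exposed males (median -0.16). The male count was 13 (median -0.12), 12 and 11 of 17 in the other settings. Tek, the endothelial angiopoietin receptor, differed by 0.64 ± 0.20 (SE) in females (adjusted p = 0.999), and Angpt2, its antagonist ligand, by 0.78 ± 0.26 (adjusted p = 0.999). Acvrl1, an endothelial receptor of the TGF-beta family, differed by -0.44 ± 0.14 in males (adjusted p = 0.304), and by -0.34 ± 0.14 without the library labelled saline male 3 (adjusted p = 0.612). The 3 genes were named for an unadjusted p under 0.05 and groups without overlap.

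Of 11 matrix genes and vitronectin receptors tested, 8 were higher in AVP-exposed females (median 0.24) and 9 were lower in AVP-exposed males (median -0.09), with 0 called. The male count was 7 (median -0.06), 6 and 4 of 11 in the other settings. Col4a1, a collagen of the vascular basement membrane, averaged 74.7 ± 6.37 TPM (SD, n = 3) in AVP-exposed and 51.1 ± 8.43 TPM (n = 4) in saline females, without overlap (log2 difference 0.56 ± 0.14, SE; adjusted p = 0.999). The nidogens Nid1 and Nid2, which link laminin to collagen IV, differed by 0.72 ± 0.19 and 0.75 ± 0.19 (SE) in females, also without overlap. Itgb1, a shared integrin subunit, differed by 0.30 ± 0.13.

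The partner genes Abcc8 and Kcnj11, which encode the ATP-sensitive potassium channel of neurons and endocrine cells, were at means of 18 and 14 TPM over all libraries, above Abcc9 and Kcnj8. Both were lower in AVP-exposed males (log2 differences -0.52 ± 0.25 and -0.15 ± 0.13, SE; -0.49 and -0.14 without the library labelled saline male 3) and higher in AVP-exposed females (0.26 ± 0.23 and 0.15 ± 0.13), with 0 called. Of 11 receptors for vasoconstrictors, 3 or 4 passed the filter. Ednrb and Ednra, the endothelin receptors, led at 15.2 and 2.94 TPM. The receptors for AVP itself, picked out after their values were seen, were near the floor: Avpr1a was at 0.0599 to 0.826 TPM, Avpr1b at 0 to 0.322 TPM, and Avpr2 was listed at 0 in every library.

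Over all 15078 genes tested, the 10 non-members most like the 9 genes were found by correlation with the mean of their scaled values over 15 libraries, group means removed. They were Col4a1 (0.96), Ephb4, Cdh5 and Ifitm2 (0.95 each), Ajuba, Sparc, Col18a1, Lama1 and Snai2 (0.94 each) and Cxcl12 (0.93). Col4a1, Col18a1 and Lama1 encode basement membrane proteins and Sparc a matrix protein that binds collagen. Ephb4 and Cdh5, VE-cadherin, are endothelial. The median correlation over all genes was 0.08, 200 non-members were above 0.8 and 24 above 0.9. Among the 9 themselves, Pdgfrb was closest to their mean (0.96), then Rgs5 (0.91), and Notch3 farthest (0.51). That mean includes the gene itself, which raises these values, so they are not comparable with those of the non-members.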

How the data were processed

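The genes and lists were chosen with earlier results of these data known. The authors trimmed stranded paired-end reads with Trim Galore 0.4.1, quantified GENCODE M16 transcripts (GRCm38) with kallisto 0.43.1 in stranded mode with bias correction, and deposited TPM per transcript; this table holds no counts. Of 133849 transcripts, 133445 were matched to genes with GENCODE M21 and summed to 53337 genes; the other 404 held 0.154 to 0.199% of TPM per library. log2(TPM + 0.5) was fitted with limma 3.58.1 (R 4.3.3) with a variance trend, in males, females and both sexes, on genes reaching 1 TPM in 50% or more of the libraries, with Benjamini-Hochberg adjustment at 0.05; fold changes understate low genes. The fits were tested on simulated data. Spread, correlations and exact tests used scipy 1.17.1. Named genes were the 10 genes, the 2 most abundant of each other list, listed genes called or (at most 3 per sex) at an unadjusted p under 0.05 without overlap, and the 10 most alike; values for some are not printed. Alternatives were other pseudocounts, filters, scalings, no trend, the library-number run, a threshold of 0.1 and leaving out each library.

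Exons of Tagln shared 62.4% of their bases with the antisense gene Gm48529, and at most 6.03% of those of Notch3 and Abcc9 lay over antisense genes, on the opposite strand. Stretches of 31 bases shared with transcripts of other genes made up 1.50% of Acta2, 1.41% of Abcc9, 1.36% of Notch3, 1.06% of Myh11 and 0.0664% of Rgs5, and 0 of the others. Of the annotated transcripts, the table held 1 of 2 for Acta2, 1 of 3 for Notch3 and 1 of 4 for Myh11.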

Additional observations from a re-analysis of the deposited data

Results flagged for a closer look

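Of 72 values by group examined in groups of 4 libraries (the 10 genes, their 10 most alike genes, the sex-linked genes and 2 ratios of marker levels), 5 had 1 library far from the other 3 by Dixon's ratio; chance gives about 1 in 20, or 3.60. Anpep was at 2.22 TPM in saline male 1, against 8.07 to 8.89 TPM in the other saline males. Notch3 was at 5.07 TPM in saline female 1, against 4.22 to 4.32 TPM in the other saline females. Lama1 was at 1.52 TPM in saline female 4. Xist at 266 TPM and the sum of 4 genes of the Y chromosome (Uty, Kdm5d, Ddx3y and Eif2s3y) at 0.489 TPM set saline male 3 apart from the other saline males.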

How the results depend on the processing

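None of the 9 genes was called in any comparison under any alternative or with any library left out. In females all 9 stayed above 0 under every scaling, pseudocount and left-out library, and their median minus that of all genes ran from 0.32 to 0.44 with 1 library left out; in males it ran from -0.16 to 0.08 and for the interaction from 0.27 to 0.55. Single genes near 0 changed sign. In males, Rgs5 was 0.006 with quantile normalization, Kcnj8 0.045 with quantile and 0.002 with median-of-ratios scaling, and Vtn 0.075 and 0.065. Leaving out 1 library gave ranges of -0.31 to 0.14 for Vtn, -0.021 to 0.72 for Anpep and -0.15 to 0.013 for Kcnj8 in males, and -0.11 to 0.65 for Anpep in the interaction. The number of all genes called was 1 in males (Mir6392, named after its value was seen), and 0 with a pseudocount of 1, 2 without the trend and 0 with the run of library numbers as a covariate; leaving out 1 library gave 0 to 6, and 0 without saline male 3. In females it was 0, and 0 to 6 with 1 library left out (6 without saline female 4). Over both sexes it was 0, and 0 to 1 with 1 library left out; in the first run of library numbers alone it was 1069 and in the second 3, settings chosen after seeing the data, with 0 of the 9 genes in either. Between the sexes it was 0, with 1 at a threshold of 0.1 and 0 to 7 with 1 library left out (7 without saline male 3). For the interaction it was 0, and 0 to 1 with 1 library left out. The causes were not tested. No paired analysis was possible because the labels do not number animals across groups. Unknown depth leaves the counting error of low genes such as Myh11 open.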

Other observations

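The transcripts behind each gene were described as shares of its TPM over the 15 libraries. These shares are estimates, since transcripts of a gene overlap and kallisto divides the reads among them. Rgs5, Pdgfrb, Abcc9 and Vtn were each dominated by 1 transcript, Rgs5-201 at 99.6% ± 0.312 (SD, n = 15), Pdgfrb-201 at 96.6% ± 4.38, Abcc9-203 at 93.3% ± 3.37 and Vtn-201 at 90.1% ± 7.56. Most of the rest of Vtn was the retained-intron transcript Vtn-204, at 8.89% ± 6.81. Anpep was the most divided, with Anpep-201 at 39.9% ± 17.9, the short Anpep-204 at 25.5% ± 13.3, Anpep-202 at 18.5% ± 11.9 and the retained-intron Anpep-206 at 12.2% ± 13.2. In females Anpep-201 held 44.3, 49.1 and 25.9% with AVP and 24.1, 34.7, 85.8 and 29.9% with saline. Anpep-203 (178 bases) held 19.6% in AVP-exposed female 3 and 0 in the other females. Tagln-201 held 77.3% ± 16.9 of Tagln and the short Tagln-202 held 17.1% ± 17.4. In females Tagln-202 held 36.3, 0 and 28.5% with AVP and 0, 0, 0 and 40.4% with saline.

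Kcnj8 had 2 protein-coding transcripts, and the shorter, Kcnj8-201, held 28.2% ± 12.7 of its TPM. In saline males its share was 29.2, 46, 41.8 and 51.5%, and in AVP-exposed males 21.5, 15, 31.1 and 16%; the lowest saline male lay below the highest AVP-exposed male. The library labelled saline male 3 was the one at 41.8%. In females the shares were 26.4, 9.87 and 20.4% with AVP and 39.3, 18.4, 17.6 and 38.8% with saline, and overlapped. The summed Kcnj8 TPM of the report is not free of this division. TPM corrects for the length of each transcript, which was 2269 bases for Kcnj8-201 and 2548 for Kcnj8-202. The same holds for other genes whose transcripts differ in length. No test was run on these shares.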
